A study of Oryza sativa with 6 samples.

Results

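The short arms of rice chromosomes 4 and 10 are known for their large heterochromatic blocks. The IP-G4s called there reproducibly under 1 cation only are described here. IP-G4s are G-quadruplexes (G4s) pulled down from folded genomic DNA by BG4, an antibody that recognises the G4 structure. The members are the K+-specific and Na+-specific IP-G4s whose midpoint lies on Chr4 from 1 to 8.2 Mb or on Chr10 from 1 to 6.7 Mb, windows that leave out the chromosome end and the centromere. Of 25509 specific IP-G4s in the genome, 1031 (4.04%) were members, 689 of them K+-specific and 342 Na+-specific. They were compared with the 2348 specific IP-G4s of the long arms, on Chr4 from 11.2 to 34.5 Mb and on Chr10 from 9.7 to 22.2 Mb. The members nearest to the edges of the windows were K+-specific at chromosome 4 from 1019863 to 1019943 and from 8172789 to 8173017, Na+-specific at chromosome 10 from 1003535 to 1003752 and K+-specific from 6668728 to 6668972. Just outside lay Na+-specific IP-G4s at chromosome 4 from 999360 to 999575 and from 8205565 to 8205765, a K+-specific one at chromosome 10 from 987662 to 987990 and a Na+-specific one from 6712009 to 6712378.

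Genomic DNA of wild-type (WT) japonica rice seedlings was denatured and refolded in PEG200, a crowding agent, with KCl (group K+PEG) or NaCl (group Na+PEG), then precipitated with anti-BG4 and sequenced, with 2 replicates per group and 2 Input libraries. Antibody incubation and washing were done in buffers with KCl in both groups, so the cations differed at the folding step only. The DNA was free of chromatin when it folded, so the lists record what these sequences can form in vitro and not G4s in the nucleus. A K+-specific IP-G4 is a segment called in both K+PEG replicates that overlaps no segment called in both Na+PEG replicates, and a Na+-specific one is the reverse. A specific IP-G4 can thus still have been called in 1 replicate of the other cation. The missing call does not show that no G4 formed there. The lists of specific IP-G4s give positions and no value of a single library, and the 4 lists of single libraries used here stop on Chr1, with 0 peaks on Chr4 and Chr10. No spread between replicates, read depth or fold enrichment could therefore be given for any member, and the errors below are counting errors or the scatter between bins of 0.5 Mb along the chromosomes. Since bins of 1 genome are not replicates of the experiment, the p-values do not cover variation between libraries.

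A G4 is built from stacked planes of guanines held together by Hoogsteen bonds, with a monovalent cation in the channel between the planes, where K+ generally stabilises the structure better than Na+. Heterochromatin is the condensed part of the genome, poor in genes and, in rice, rich in retrotransposons and other repeats. On Chr4 and Chr10 it fills much of the short arm, whereas the long arms carry most of the genes. Neither the sequence nor the genes of the arms were analysed here, because no sequence or annotation of the build of the lists (MSU v7.0) was used here, so the label heterochromatic was not checked on these data and no sequence of a member is shown.

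Specific IP-G4s were denser in the short arm of Chr4 than in its long arm, whereas the difference on Chr10 did not pass the test. The short arm of Chr4 held 615 specific IP-G4s in 7.2 Mb, or 85.4 per Mb (95% interval 75.9 to 96.2, from the scatter between bins), against 1503 in 23.3 Mb, or 64.5 per Mb (59.8 to 69.6), in the long arm. The short arm of Chr10 held 416 in 5.7 Mb, or 73.0 per Mb (63.2 to 84.3), against 845 in 12.5 Mb, or 67.6 per Mb (61.1 to 74.8). The intervals of the arms did not overlap on Chr4 and overlapped on Chr10.

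The short-to-long ratio of densities was 1.32 on Chr4 (95% interval 1.15 to 1.52; quasi-Poisson fit over all arms, n = 625 bins, adjusted p = 0.00112 over 11 chromosomes) and 1.08 on Chr10 (0.905 to 1.29; adjusted p = 0.55). Chr4 was the only one of the 11 chromosomes with a denser short arm at an adjusted p under 0.05 (9.09% of those tested), and none had a denser long arm by that rule. Chr12 came next and just missed the threshold, with a ratio of 1.22 (1.05 to 1.42; n = 625 bins, adjusted p = 0.0542). Both chromosomes together gave a ratio of 1.20 (1.07 to 1.34; n = 625 bins, adjusted p = 0.00688 over 7 measures), and Chr10 alone did not pass the test. The difference between the ratios of Chr4 and Chr10 did not pass the test (ratio of ratios 1.23, 0.979 to 1.54; n = 625 bins, p = 0.0762). In the other 9 chromosomes the mean ratio was 1.02 (0.968 to 1.06), and the joint ratio of Chr4 and Chr10 exceeded it by a factor of 1.18 (1.04 to 1.33; n = 625 bins, p = 0.00886), a comparison chosen after the values had been seen. By itself, Chr4 exceeded the others by a factor of 1.30 (1.12 to 1.51), whereas for Chr10 the factor was 1.06 (0.886 to 1.28).

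Among the 23 arms measured in the same way, the short arm of Chr4 ranked first in density and that of Chr10 ranked 4. The other 19 arms ranged from 60.2 to 76.5 per Mb, with a median of 65.9. Their highest value came from the short arm of Chr12 (76.5 per Mb, 68.5 to 85.4), whose interval overlaps those of both short arms described here. Against the mean of the other 9 short arms, the short arm of Chr4 was 1.28 times as dense (1.13 to 1.45) and that of Chr10 1.10 times (0.944 to 1.27).

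**Figure D1:**
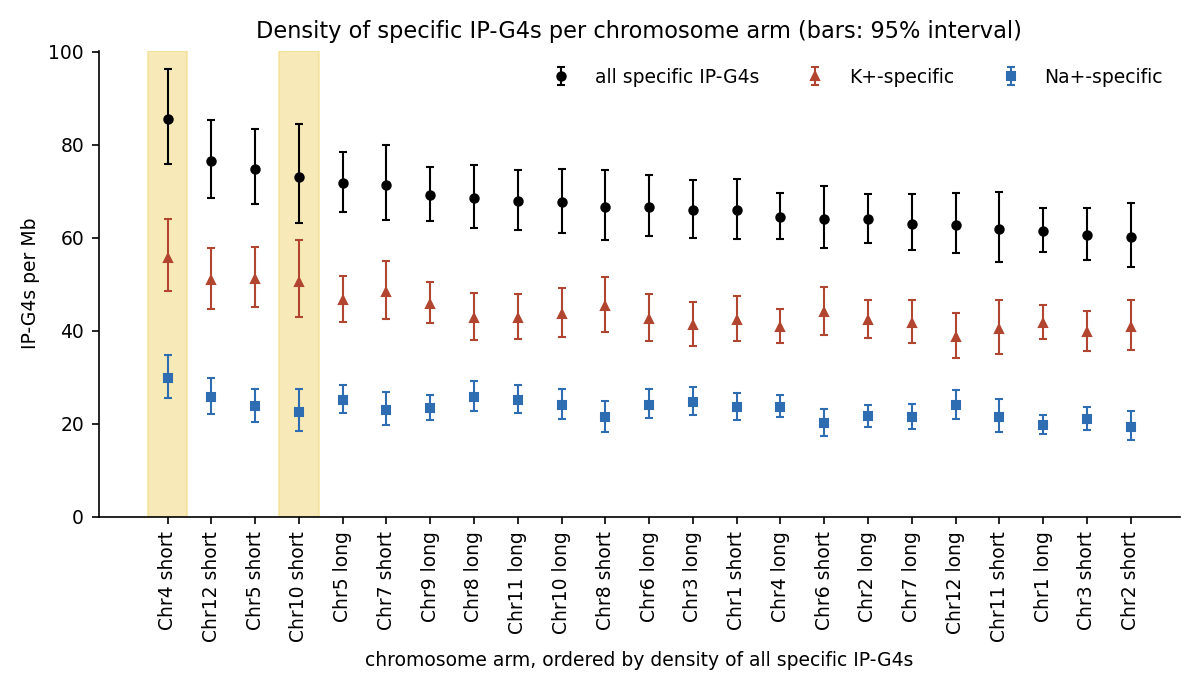
Density of specific IP-G4s (per Mb, vertical axis) in 23 chromosome arms, ordered by the density of all specific IP-G4s, with points for all, K+-specific and Na+-specific ones and bars for the 95% interval from the scatter between bins; the short arms of Chr4 and Chr10 are shaded. The short arm of Chr4 stands first at 85.4 per Mb, and that of Chr10 lies at 73.0 per Mb among arms whose intervals overlap its own.

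Split by cation, the short arm of Chr4 was the densest of the 23 arms for both types. K+-specific IP-G4s numbered 401 there, or 55.7 per Mb (48.4 to 64.0), against 951, or 40.8 per Mb (37.3 to 44.7), in the long arm, and the ratio of 1.36 (1.16 to 1.61) passed the test (n = 625 bins, adjusted p = 0.00295). Na+-specific ones numbered 214, or 29.7 per Mb (25.4 to 34.8), against 552, or 23.7 per Mb (21.5 to 26.1), and their ratio of 1.25 (1.04 to 1.51) did not pass it after adjustment (n = 625 bins, p = 0.016, adjusted p = 0.147). Set against the mean of the other 9 short arms, the short arm of Chr4 was denser in both, 1.25 times (1.08 to 1.45) for K+-specific and 1.35 times (1.14 to 1.59) for Na+-specific IP-G4s, in a comparison chosen after the values had been seen. Of the 11 chromosomes, 18.2% had a higher density of K+-specific IP-G4s in the short arm by the test, namely Chr4 and Chr12, and 0% a higher density of Na+-specific ones, with 2 chromosomes at an unadjusted p under 0.05.

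On Chr10, the ratio was above 1 for K+-specific and below 1 for Na+-specific IP-G4s, and neither passed the test. K+-specific IP-G4s numbered 288 (50.5 per Mb, 42.9 to 59.6) against 545 in the long arm (43.6 per Mb, 38.7 to 49.1), a ratio of 1.16 (0.945 to 1.42; n = 625 bins, adjusted p = 0.428). Na+-specific ones numbered 128 (22.5 per Mb, 18.3 to 27.5) against 300 (24.0 per Mb, 21.0 to 27.4), a ratio of 0.936 (0.735 to 1.19; n = 625 bins, adjusted p = 0.589). Only specific IP-G4s were counted, so these densities say nothing of the G4s common to both cations.

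The K+-specific share of the members was 66.8% (689 of 1031), against 63.7% (1496 of 2348) in the long arms, a difference that did not pass the test. The odds ratio from the fit over bins was 1.16 (0.982 to 1.37; adjusted p = 0.142 over 7 measures), and Fisher's exact test on the 4 pooled counts gave p = 0.0855. On Chr4 the share was 65.2% in the short arm (95% Wilson interval 61.4 to 68.9, counting error only) and 63.3% in the long arm (60.8 to 65.7). On Chr10 it was 69.2% (64.6 to 73.5) and 64.5% (61.2 to 67.7).

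The short arm of Chr10 had the highest K+-specific share of the 23 arms, with 2.25 K+-specific IP-G4s for each Na+-specific one, whereas that of Chr4 ranked 14. A higher share in the short arm was seen on 10 of 11 chromosomes, of which 0% passed the test after adjustment and 2 at an unadjusted p under 0.05, neither of them Chr4 or Chr10. The mean odds ratio of the other 9 chromosomes was 1.12 (1.05 to 1.20), and that of Chr4 and Chr10 could not be told from it (factor of 1.04, 0.863 to 1.24).

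**Figure D2:**
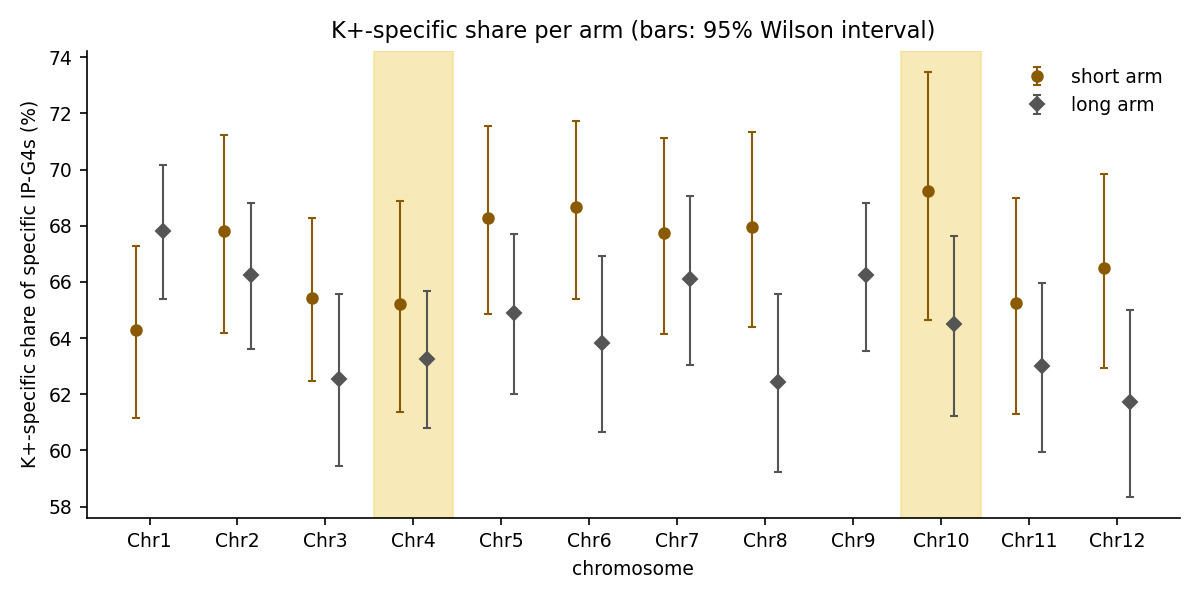
K+-specific share of specific IP-G4s (percent, vertical axis, which does not start at 0) in the short arm (circles) and long arm (diamonds) of each chromosome, with 95% Wilson intervals; Chr4 and Chr10 are shaded and the short arm of Chr9 was too short to be used. The share is 69.2% in the short arm of Chr10 and 65.2% in that of Chr4, and the intervals of short and long arm overlap on both.

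Along the arms, members were present in every bin of 0.5 Mb, with peaks of density in a few bins. In the short arm of Chr4, the 14 bins ranged from 58 to 138 per Mb with a median of 83, and 13 of them lay above 64 per Mb, the median of all 625 bins measured. In its long arm, 26 of 47 bins did. The 11 bins of the short arm of Chr10 ranged from 48 to 134 per Mb with a median of 66, and 6 of them lay above 64. The excess of the short arm of Chr4 was thus spread over nearly all its bins, while the mean of the short arm of Chr10 was raised above its median by a few full bins.

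The fullest bin of the short arm of Chr4, chromosome 4 from 3000001 to 3500000, held 44 K+-specific and 25 Na+-specific IP-G4s. The fullest of Chr10, chromosome 10 from 5000001 to 5500000, held 42 and 25. Both types were thus at their highest in the same bin of each arm, at 50 Na+-specific IP-G4s per Mb in both and 88 and 84 K+-specific ones per Mb. The emptiest bins were chromosome 4 from 5000001 to 5500000, with 12 K+-specific and 17 Na+-specific IP-G4s, and chromosome 10 from 5500001 to 6000000, next to the fullest one, with 18 and 6. Across bins, the densities of both types had a Pearson correlation of 0.343 on the short arm of Chr4 and 0.409 on that of Chr10, but a rank correlation of 0.0685 and 0.0687. These values rest on 14 and 11 bins cut from the same lists and are given as a description.

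The mixture of types varied from bin to bin. On Chr4, the K+-specific share of the short-arm bins went from 41.4% (12 of 29, Wilson interval 25.5 to 59.3) in its emptiest bin to 80.9% (38 of 47, 67.5 to 89.6) in the outermost bin, from 1 to 1.5 Mb. On Chr10 it went from 48.1% (13 of 27, 30.7 to 66.0) between 1.5 and 2 Mb to 88.2% (30 of 34, 73.4 to 95.3) between 2.5 and 3 Mb. K+-specific IP-G4s outnumbered Na+-specific ones in 13 of 14 bins and in 10 of 11 bins, respectively. These bins were singled out after their values had been seen.

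**Figure D3:**
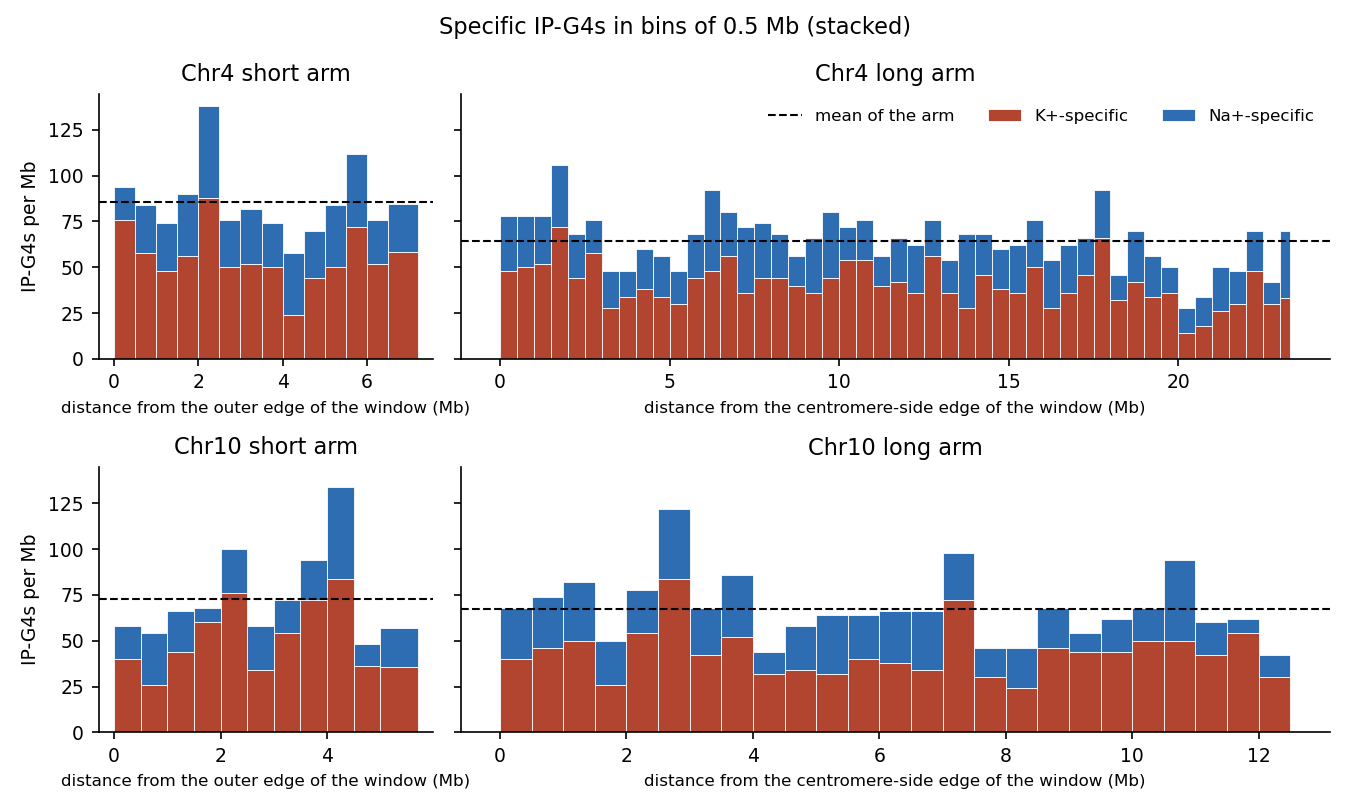
Specific IP-G4s per Mb (vertical axis) in bins of 0.5 Mb along the short arms (left, distance in Mb from the outer edge of the window) and long arms (right, distance from the centromere-side edge) of Chr4 (top) and Chr10 (bottom), with K+-specific and Na+-specific ones stacked and the mean of the arm as a dashed line. Bins of 138 and 134 per Mb stand out in the short arms, and 13 of 14 bins of the short arm of Chr4 lie above 64 per Mb.

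When each short arm was cut into 3 equal stretches, the density had a different course on the 2 chromosomes. On Chr4 it was 96.7 per Mb in the outermost stretch, 73.8 in the middle and 85.8 in the stretch next to the centromere. On Chr10 it was 61.1 in the outermost, 79.5 in the middle and 78.4 in the innermost stretch. From the outermost to the innermost stretch, the median length of K+-specific IP-G4s was 284, 278 and 236 bp on Chr4 and 278.5, 263 and 255 bp on Chr10. The medians of Na+-specific ones were 231, 221.5 and 214 bp on Chr4 and 220, 210 and 220 bp on Chr10. These values were not tested.

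The length of an IP-G4 here is that of the segment shared by both replicates, so it is at most the length of the shorter of both peaks. It can be shorter than 200 bp, the shortest peak listed for each of the 4 single libraries, whose lists cover part of Chr1 only. K+-specific IP-G4s of the short arms averaged 317 bp (SD 176 over segments, n = 689), with a median of 265 bp, against 300.4 bp (SD 147, n = 1496) and 261.5 bp in the long arms. Na+-specific ones had a mean of 237 bp (SD 94.1, n = 342) and a median of 218.5 bp, against 243.5 bp (SD 97.4, n = 852) and 224 bp. On the log scale, the short-to-long ratio of lengths was 1.01 (0.966 to 1.06; n = 625 bins, adjusted p = 0.629) for K+-specific and 0.970 (0.921 to 1.02; adjusted p = 0.351) for Na+-specific IP-G4s. By chromosome, the ratio for K+-specific IP-G4s was 1.03 (0.972 to 1.10) on Chr4 and 0.991 (0.924 to 1.06) on Chr10, and that for Na+-specific ones 0.992 (0.923 to 1.07) and 0.949 (0.879 to 1.02). For each type, 0% of the 11 chromosomes differed between arms after adjustment, with 1 chromosome at an unadjusted p under 0.05 for K+-specific and 0 for Na+-specific IP-G4s.

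Segments under 200 bp differed little in frequency between short and long arms, and the difference did not pass the test. They made up 15.2% (105 of 689) against 15.6% (234 of 1496) of the K+-specific IP-G4s and 28.7% (98 of 342) against 27.3% (233 of 852) of the Na+-specific ones (Fisher's exact test, adjusted p = 1 for both over 15 tests). Inside the short arms, the K+-specific type exceeded the other in length by a factor of 1.25 on Chr4 (1.15 to 1.34) and 1.24 on Chr10 (1.15 to 1.35), and by 1.20 (1.13 to 1.26) and 1.19 (1.12 to 1.27) in the long arms.

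The arms of Chr4 differed in the upper tail of length, among K+-specific IP-G4s of at least 600 bp, whereas the difference on Chr10 did not pass the test. On Chr4, 37 of 401 (9.23%) of the short arm reached this length, against 38 of 951 (4.0%) in the long arm, an odds ratio of 2.44 (1.54 to 3.87; adjusted p = 0.00175 over 11 chromosomes in the fit over bins; Fisher's exact test, adjusted p = 0.0035 over 15 tests). Chr4 was the only chromosome called (9.09% of 11), and its short arm ranked first of 23 arms, the other 19 ranging from 2.69% to 5.96%. For the short arm of Chr10 the share was 5.90% (17 of 288), against 6.06% (33 of 545) in its long arm, an odds ratio of 0.973 (0.537 to 1.76; n = 625 bins, adjusted p = 0.929). The ratio of the odds ratios of Chr4 and Chr10 was 2.51 (1.18 to 5.32; quasi-binomial fit, n = 625 bins, p = 0.0166). This p-value was the lowest of 8 such differences and was not adjusted for them. The length of 600 bp was chosen with the lengths known, so these tests are a description of these lists more than an independent check. At 400 bp or more, both short arms had the higher share, with 22.9% (92 of 401) against 18.4% (175 of 951) on Chr4. On Chr10 it was 22.6% (65 of 288) against 19.1% (104 of 545), and the shares at 400 bp were not tested.

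The 37 long K+-specific IP-G4s of Chr4 had a median length of 735 bp and were spread over 13 of the 14 bins, with at most 5 in a bin. Of these, 16 lay in the outermost, 9 in the middle and 12 in the innermost of 3 equal stretches. The 17 of Chr10 lay in 8 of 11 bins, with 8, 8 and 1 in the 3 stretches. A specific IP-G4 of either type lay within 5 kb of 64.9% of the long ones on Chr4, and of 70.3% of the shorter K+-specific ones. On Chr10 the order was the reverse, with 64.7% of the long and 60.1% of the shorter ones. Neither difference was tested.

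**Figure D4:**
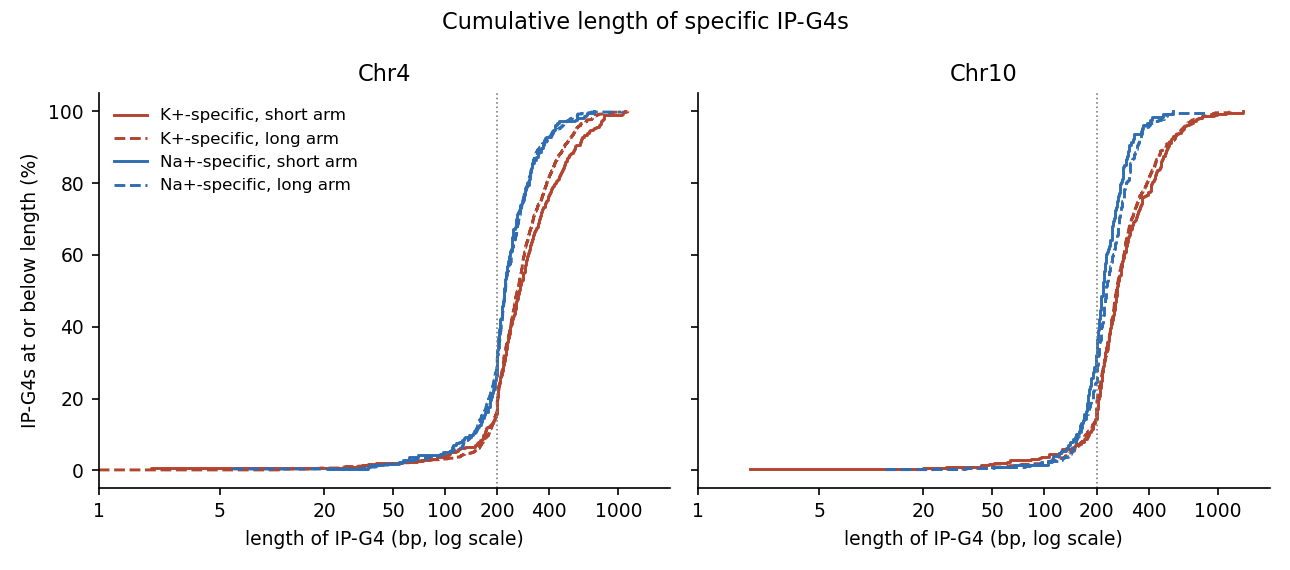
Cumulative share of IP-G4s (percent, vertical axis) at or below a given length (bp, log scale, horizontal axis) for K+-specific and Na+-specific IP-G4s of the short arms (solid) and long arms (dashed) of Chr4 and Chr10, with 200 bp dotted. Short-arm and long-arm lines run near each other for both types, and those of K+-specific IP-G4s on Chr4 part in the upper range, where 9.23% of the short arm and 4.0% of the long arm reach 600 bp.

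The longest K+-specific IP-G4s of the short arm of Chr4 were of nearly equal size. They lay on chromosome 4 from 3897474 to 3898559 (1086 bp), from 2885992 to 2887062 (1071 bp) and from 4011558 to 4012621 (1064 bp). Within 50 kb of the first there were 10 other K+-specific and 2 Na+-specific IP-G4s, whereas the other two had 5 and 4 K+-specific and 6 and 5 Na+-specific ones around them. The longest Na+-specific ones of this arm lay from 4247786 to 4248506 (721 bp), from 4579008 to 4579663 (656 bp) and from 7676851 to 7677501 (651 bp).

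On Chr10, one K+-specific IP-G4 stood above the others. It lay on chromosome 10 from 2677343 to 2678750 (1408 bp), with 9 K+-specific and 0 Na+-specific IP-G4s within 50 kb, in the bin with the highest K+-specific share of the arm. The next ones lay from 1721173 to 1722290 (1118 bp), with 1 K+-specific and 3 Na+-specific IP-G4s within 50 kb, and from 3297399 to 3298384 (986 bp), with 10 and 1. The longest Na+-specific IP-G4s of this arm were shorter than those of Chr4, from 4254762 to 4255313 (552 bp), from 2017769 to 2018249 (481 bp) and from 2565409 to 2565828 (420 bp). All 3 had more K+-specific than Na+-specific IP-G4s within 50 kb.

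Through number and length together, K+-specific IP-G4s covered 17881 bp per Mb of the short arm of Chr4 and 15774 bp per Mb of that of Chr10, against 12142 and 13320 bp per Mb in the long arms. Over the other 19 arms the covered length ranged from 11190 to 15738 bp per Mb. The short arm of Chr4 lay above this range, whereas that of Chr10 was about level with its highest value, from the short arm of Chr5. Na+-specific ones covered 7177 bp per Mb in the short arm of Chr4 and 5147 bp per Mb in that of Chr10, against 5761 and 5860 bp per Mb in the long arms. The range over the other arms was 4576 to 6507 bp per Mb, exceeded in the short arm of Chr4 only. None of these covered lengths was tested.

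Neighbouring specific IP-G4s had smaller median gaps in the short arms, and on Chr4 more of them had a neighbour within 5 kb. The median gap between midpoints was 6498 bp in the short arm of Chr4 (quartiles 2158.5 and 16276 bp), against 9618.5 bp (3275 and 21351 bp) in the long arm. On Chr10 it was 8104.5 bp (2650.5 and 18056 bp), against 9724 bp (2859 and 20397 bp). Another specific IP-G4 of either type lay within 5 kb of 65.9% of the members on Chr4, against 54.6% in the long arm, an odds ratio of 1.60 (1.18 to 2.18; quasi-binomial fit over bins, adjusted p = 0.0293 over 11 chromosomes, of which it was the 1 called, 9.09%). The call on Chr4 held at 5 kb only: at 1, 2 and 10 kb its odds ratio was 1.29, 1.37 and 1.70 (quasi-binomial fits, adjusted p = 0.586, 0.211 and 0.058). On Chr10 the shares were 59.4% and 56.7% (odds ratio 1.12, 0.768 to 1.62; n = 625 bins, adjusted p = 0.681). For both together the odds ratio was 1.34 (1.05 to 1.70; n = 625 bins, adjusted p = 0.0435 over 7 measures), but its excess over the other 9 chromosomes did not pass the test (factor of 1.29, 0.993 to 1.68; p = 0.0561). At 1 kb the joint odds ratio was 1.23 (0.930 to 1.63; quasi-binomial fit, p = 0.145). The share with a neighbour within a fixed distance rises with density, and the share to be had from density alone was not computed. These odds ratios therefore cannot be told apart from the difference in density.

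Spacing follows density, so gaps were also set against the mean gap of their arm. The median gap was 0.558 of the mean gap in the short arm of Chr4 and 0.594 in that of Chr10, against 0.621 and 0.659 in the long arms. That of the short arm of Chr4 was the lowest of the 23 arms, the other 19 ranging from 0.577 to 0.684. The coefficient of variation of the gaps was 1.14 and 1.18 in the short arms and 1.15 and 1.07 in the long arms, inside the range of 1.05 to 1.22 over the other 19 arms. These measures were not tested, and they differ in where they place the short arm of Chr4 among the arms.

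**Figure D5:**
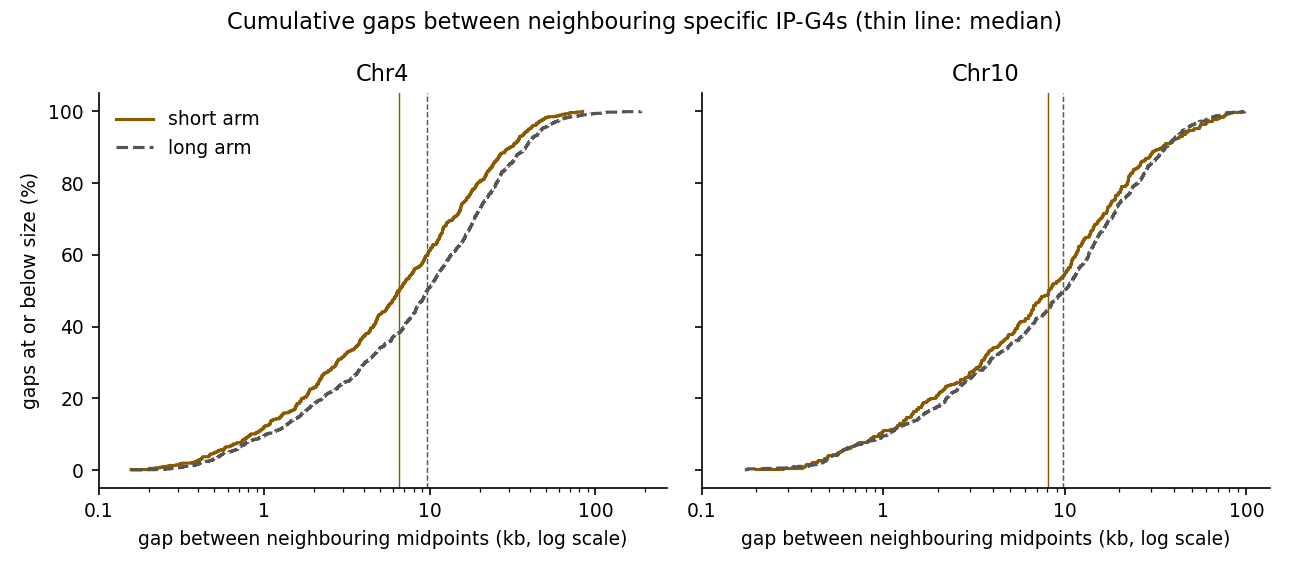
Cumulative share of gaps (percent, vertical axis) at or below a given size between midpoints of neighbouring specific IP-G4s (kb, log scale, horizontal axis) in the short arms (solid) and long arms (dashed) of Chr4 and Chr10, with medians as thin lines. The short-arm line of Chr4 lies to the left of the long-arm line over most of its course, with medians of 6498 and 9618.5 bp, and the lines of Chr10 lie closer together, with medians of 8104.5 and 9724 bp.

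Chains of at least 3 specific IP-G4s with gaps of up to 5 kb held 43.4% of the members on Chr4, in 69 chains, and 32.9% on Chr10, in 35 chains, against 29.3% and 27.3% in the long arms. Over the other 19 arms, the range was 19.7% to 37.1%, below the short arm of Chr4. Such chains become more frequent with density, and the top of this range came from the short arm of Chr12, the densest of these 19 arms. Neither these shares nor the counts that follow were tested. The longest chain on Chr4 had 9 IP-G4s, 5 K+-specific and 4 Na+-specific, on chromosome 4 from 1618892 to 1639040. That on Chr10 had 7, of which 6 were K+-specific, on chromosome 10 from 3322234 to 3335308. The fullest 100 kb held 26 IP-G4s on chromosome 4 from 6720894 to 6811728 (18 K+-specific and 8 Na+-specific) and 25 on chromosome 10 from 4986262 to 5085110 (19 and 6), against 17 and 20 in the fullest 100 kb of the long arms.

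Gaps without any specific IP-G4 were at most 83623 bp between midpoints in the short arm of Chr4, on chromosome 4 from 7152273 to 7235718, and 94927 bp in that of Chr10, on chromosome 10 from 4104414 to 4199097. The longest in the long arms were 188478 and 98033.5 bp. A maximum rises with the number of gaps and with their mean, and both were larger in the long arms. These maxima were not tested.

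The types were interspersed, with somewhat more neighbours of equal type than the shares of the types alone would give. Of 614 neighbouring pairs in the short arm of Chr4, 58.0% were of equal type, where independent drawing at the shares of this arm would give 54.6%, and of 415 pairs in that of Chr10 59.8%, where it would give 57.4%. In the long arms the values were 54.7% against 53.5% and 53.3% against 54.2%. Over the other 19 arms the share of equal type ranged from 53.8% to 61.3%, which takes in both short arms. The excess was not particular to them: the short arm of Chr6 had 61.3% against 57.0%, and the long arm of Chr1 55.9% against 56.3%. Among the 157 pairs within 5 kb in the short arm of Chr10, 65.0% were of equal type, and among the 267 of Chr4 58.4%. For such close pairs the share was 51.4% in the long arm of Chr10 and 56.8% in that of Chr4. It reached 66.3% in the short arm of Chr6. None of these shares was tested.

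The nearest K+-specific neighbour of a K+-specific IP-G4 was a median of 4080 bp away in the short arm of Chr4 and 4691 bp in that of Chr10, against 7106 and 7298.5 bp in the long arms. Such distances shorten as density rises, and neither they nor the values that follow were tested. A Na+-specific IP-G4 lay within 5 kb of 31.9% of the K+-specific ones on Chr4 and 24.3% on Chr10, against 23.8% and 28.3% in the long arms. The closest pair of each short arm joined both types, with midpoints 157 bp apart on chromosome 4 from 6346862 to 6347174 and 200 bp apart on chromosome 10 from 4061405 to 4061804.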

How the data were processed

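Per the study's methods, the authors used Trim Galore for trimming, BWA for alignment to the MSU v7.0 genome and MACS for peaks of each library against input, then kept the segments called in both replicates. The deposited lists give positions only, and lengths and midpoints were computed from them, with coordinates printed from 1. The members, windows and measures were chosen with earlier results of these data known. Arms of the other chromosomes ran from 1 Mb to 1.5 Mb before the centromere and from 1.5 Mb after it to 1 Mb before the last specific IP-G4, with centromeres at their commonly cited positions; arms under 2 Mb were left out, which left 23 arms, 625 bins of 0.5 Mb and 11 chromosomes with both arms. A remainder under 0.5 of a bin joined the last full bin, and a longer one made a bin of its own. Densities were fitted by a quasi-Poisson and shares by a quasi-binomial model with 1 level per arm, and log2 lengths by a linear model with errors clustered by bin, using numpy 2.4.6, scipy 1.17.1 and Python 3.11.15. The fits were tested on simulated data with independent bins, which does not cover the resemblance between neighbouring bins seen in these lists. Bin counts scattered 2.25 times as much as Poisson counts. P-values are two-sided with Benjamini-Hochberg adjustment over 11 chromosomes or, for both chromosomes together, over 7 measures. Contrasts with the other 9 chromosomes are unadjusted. Regions named are the 3 longest of each type per short arm, the fullest and emptiest bin, the longest gap and the fullest 100 kb; chains, closest pairs and bins of extreme share were added after the values had been seen. Alternatives were other bin sizes, segments of at least 200 bp, narrower windows, a smaller fit, each chromosome alone, merged neighbours, other distances and lengths in bp. Sequence and gene content and the input libraries were not analysed here.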

Additional observations from a re-analysis of the deposited data

Results flagged for a closer look

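At a length of at least 600 bp, the share of K+-specific IP-G4s was higher in the short arm on Chr4 only. The short-to-long odds ratio was 2.44 on Chr4 and 0.973 on Chr10, and their ratio was 2.51 (95% interval 1.18 to 5.32; quasi-binomial fit over bins, p = 0.0166, the lowest of 8 such differences and not adjusted for them). The length of 600 bp was chosen with the lengths known. At 400 bp or more, the share was higher in the short arm on both chromosomes. It was 22.9% against 18.4% on Chr4 and 22.6% against 19.1% on Chr10, which was not tested.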

How the results depend on the processing

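Of 58 alternative values for 7 results, 50 neither changed direction nor crossed the threshold of 0.05. The exceptions came from taking 1 chromosome alone, from a neighbour distance of 1 kb and from the share of long IP-G4s, the last 2 chosen after seeing the data. Other bin sizes and the smaller fit leave the estimate as it is, so they could change the error and p-value only, not the direction. For results that had not passed the test, no change means only that they still did not pass. At 1 kb, the odds ratio of close neighbours was 1.23 and no longer passed (quasi-binomial fit, p = 0.145), while 2 and 10 kb kept it past the threshold. With Chr10 alone, the density ratio was 1.08 for all and 1.16 for K+-specific IP-G4s, and the odds ratio of neighbours within 5 kb was 1.12, all no longer past the threshold, while the ratio of Na+-specific density was 0.936 and that of K+-specific length 0.991, both in the opposite direction without passing it. With Chr4 alone, the ratio of Na+-specific density was 1.25 and passed the unadjusted threshold. The share of K+-specific IP-G4s of at least 600 bp, over both chromosomes, gave an odds ratio of 1.54 (quasi-binomial fit, p = 0.0241), where the mean log2 length did not differ. With both chromosomes together, the density ratio ranged from 1.17 to 1.24 over the alternatives and the odds ratio of the K+-specific share from 1.15 to 1.21. Neighbouring bins resembled each other (correlation of residuals 0.224 for density), and with bins of 1 Mb the density ratio of 1.20 had p = 0.0067. No paired analysis was possible because the lists of specific IP-G4s carry no value of a single library. For the same reason no replicate could be left out, and a stricter calling threshold could not be set.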
